A study of Arabidopsis thaliana with 12 samples.

Results

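The WRKY genes encode one of the large families of plant transcription factors, and 57 of them were examined here for their response to the nitric oxide (NO) donor sodium nitroprusside (SNP). Of the 57 listed genes, 52 were tested among 20623 genes of the whole data set. The 52 were chosen by their measured level, a normalized value of at least 10 in 3 or more of the 12 libraries. The libraries came from Arabidopsis thaliana seedlings at 7 days from germination, either the Col-0 wild type or the ap1/cal double mutant, whose lesions in AP1 and CAL affect flower meristem identity. Seedlings stayed for 24 h on plates with 1 mM SNP or without it (Mock), and each of the 4 groups held 3 libraries. Seedlings are named in the labels and in the study's account of this experiment, while its sequencing methods describe a separate one on ap1/cal shoot apices. No other agent was named in the labels for any group.

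WRKY proteins bind a short DNA element called the W box through a zinc-finger domain that carries the WRKY signature, and many of them act in immunity, senescence, nutrient supply and responses to oxidants. They are placed in group I, which has a pair of WRKY domains, in groups IIa to IIe, which have 1 domain and differ in the surrounding protein, and in group III, which has another type of zinc finger. Many WRKY genes hold W boxes in their own promoters, and WRKY proteins can act as activators or as repressors of one another. For 37 of the 57 genes the reference annotation names a group. It gives the same group as used here for 35, and places WRKY23 and WRKY45 in group I where IIc is used here.

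W boxes were searched as TTGACC or TTGACT on either strand in the 300 bases upstream of the annotated gene start. Matches that share a base were counted as separate. At least 1 was found for 19 of the 52 tested genes (36.5%), against 32.4% of all genes tested, and at least 3 for 2 of them (3.85%, against 1.47%). Those 2 were WRKY30 and WRKY33, which had the largest rises of groups III and I in Col-0. WRKY40, WRKY6 and WRKY22, with the largest rises of groups IIa, IIb and IIe in Col-0, had no W box in the window. WRKY28 and WRKY15, with the largest rises of groups IIc and IId, had 1 and 2. The windows of WRKY30 and WRKY33 are shown with that of WRKY53, which holds 2 W boxes and whose response differed most between the genotypes. Sequences are from the RefSeq TAIR10.1 assembly, 5′ to 3′ on the strand of the gene, with each W box in capitals (AGTCAA and GGTCAA are W boxes on the other strand).
WRKY33, chr2:16107935-16108234, plus strand: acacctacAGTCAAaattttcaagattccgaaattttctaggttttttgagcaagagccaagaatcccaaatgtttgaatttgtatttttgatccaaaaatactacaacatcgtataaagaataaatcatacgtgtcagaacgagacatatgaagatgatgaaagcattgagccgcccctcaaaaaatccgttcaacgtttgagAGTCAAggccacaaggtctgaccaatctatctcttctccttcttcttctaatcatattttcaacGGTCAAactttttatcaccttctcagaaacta
WRKY30, chr5:8154711-8155010, minus strand: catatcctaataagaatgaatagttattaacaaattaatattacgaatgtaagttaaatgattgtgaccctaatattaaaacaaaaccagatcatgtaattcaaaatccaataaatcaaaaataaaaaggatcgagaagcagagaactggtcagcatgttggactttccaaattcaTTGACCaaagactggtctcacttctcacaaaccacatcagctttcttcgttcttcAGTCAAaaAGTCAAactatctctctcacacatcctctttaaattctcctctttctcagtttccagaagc
WRKY53, chr4:12393983-12394282, minus strand: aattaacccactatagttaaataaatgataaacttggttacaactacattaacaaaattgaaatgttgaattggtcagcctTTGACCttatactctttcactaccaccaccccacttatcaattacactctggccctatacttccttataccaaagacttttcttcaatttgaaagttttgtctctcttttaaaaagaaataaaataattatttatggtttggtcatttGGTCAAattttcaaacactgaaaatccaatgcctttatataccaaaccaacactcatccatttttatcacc
No other annotated gene lay in these 3 windows. Of the 20 WRKY genes called higher with SNP in both genotypes, 10 had a W box in this window. Of the 8 called lower in both, 0 had one, and of the other 24, 9 had one (37.5%, beside the 32.4% of all genes tested). These are matches of letters, described without a test.

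Levels were deposited as a normalized signal, which is not a whole read count, in 1 table per genotype, each scaled on its own. SNP was therefore compared with Mock within each genotype, and the difference between the 2 responses (ap1/cal minus Col-0) was tested as an interaction. Tests used limma on log2(value + 1), and a gene was called when the Benjamini-Hochberg adjusted p over all tested genes was below 0.05 and the fold was at least 1.5. Errors of fold changes are standard errors from this fit, with 3 libraries per group. The estimated reads per library ran from 22.5 to 59.7 in units of 1e6, and no library was a copy of another. The total signal was higher with SNP (38.0 ± 1.07 in Col-0 and 44.8 ± 0.723 in ap1/cal, SD, in the same units) than in Mock (26.9 ± 1.07 and 27.4 ± 1.75). As bulk seedlings were sequenced, a change in the share of a cell type and a change of RNA within cells cannot be told apart.

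Markers were read beside the family. All 3 green shoot markers were abundant, with sums of 507591 to 815918 over the 12 libraries, and RBCS1A was the only one called (log2 fold change 0.67 in Col-0). Of 3 root markers, the root-hair genes COBL9 and EXPA7 fell in both genotypes, while MYB36, a gene of the root endodermis, rose in Col-0 (0.79) and was not called in ap1/cal (-0.06). The root sum dropped from 625 to 690 in Col-0 Mock to 175 to 195 with SNP, and in the mutant from 739 to 856 to 82.0 to 94.1. Of 4 floral markers, AG and AP1 were in neither table, and PI was the only one tested and was not called. Of 2 seed markers, CRA1 was called in neither genotype, and OLEO1 was called higher in both. OLEO1 was low in Col-0 (1.56, 0 and 3.23 in Mock and 3.49, 6.65 and 9.33 with SNP), and its ap1/cal treatments overlapped. In the separately scaled tables the seed sum was higher in ap1/cal Mock (27.1 to 233) than in Col-0 Mock (2.76 to 8.06). AP1 aside, CAL had values only in the ap1/cal table (2.93 to 8.28), so neither mutated gene checks the genotype labels.

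In Col-0, 37 of the 52 WRKY genes were called (71.2%, against 55.9% of all genes tested). Of these, 29 rose (55.8%, against 26.9%) and 8 fell (15.4%, against 29.1%). In ap1/cal, 39 were called (75%, against 62.9% of all genes), of which 21 rose (40.4%, against 29.8%) and 18 fell (34.6%, against 33.0%). The median log2 fold changes of the family were 0.74 (Col-0) and 0.24 (ap1/cal), where the medians over all genes were -0.02 and -0.04. In both genotypes 20 genes rose and 8 fell, and WRKY53 alone was called in opposite directions. Calls confined to one genotype numbered 8 for Col-0 and 10 for ap1/cal, and 5 genes had no call in either. Of the 52, 7 reached a value of 10 in one treatment alone and so had to differ to be tested. Over the other 45, 25 rose and 7 fell in Col-0, and 19 rose and 15 fell in ap1/cal.

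The balance of rises and falls depended on the scaling. With every library scaled to the same total, the median of all genes shifted to -0.51 in Col-0 and -0.74 in ap1/cal. Then 23 WRKY genes rose (44.2%, against 15.6% of all genes) and 16 fell (30.8%, against 45.9%) in Col-0, and 15 rose (28.8%, against 15.1%) and 23 fell (44.2%, against 54.1%) in ap1/cal. With upper-quartile scaling, where the medians of all genes were -0.27 and -0.40, 24 rose (46.2%, against 19.8% of all genes) and 12 fell (23.1%, against 37.4%) in Col-0. In ap1/cal 18 then rose (34.6%, against 20.7%), and the share that fell (23 genes, 44.2%) was near that of all genes (43.6%). The family median lay above that of all genes in each case, at 0.25 and -0.47 with the first scaling.

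**Figure D1:**
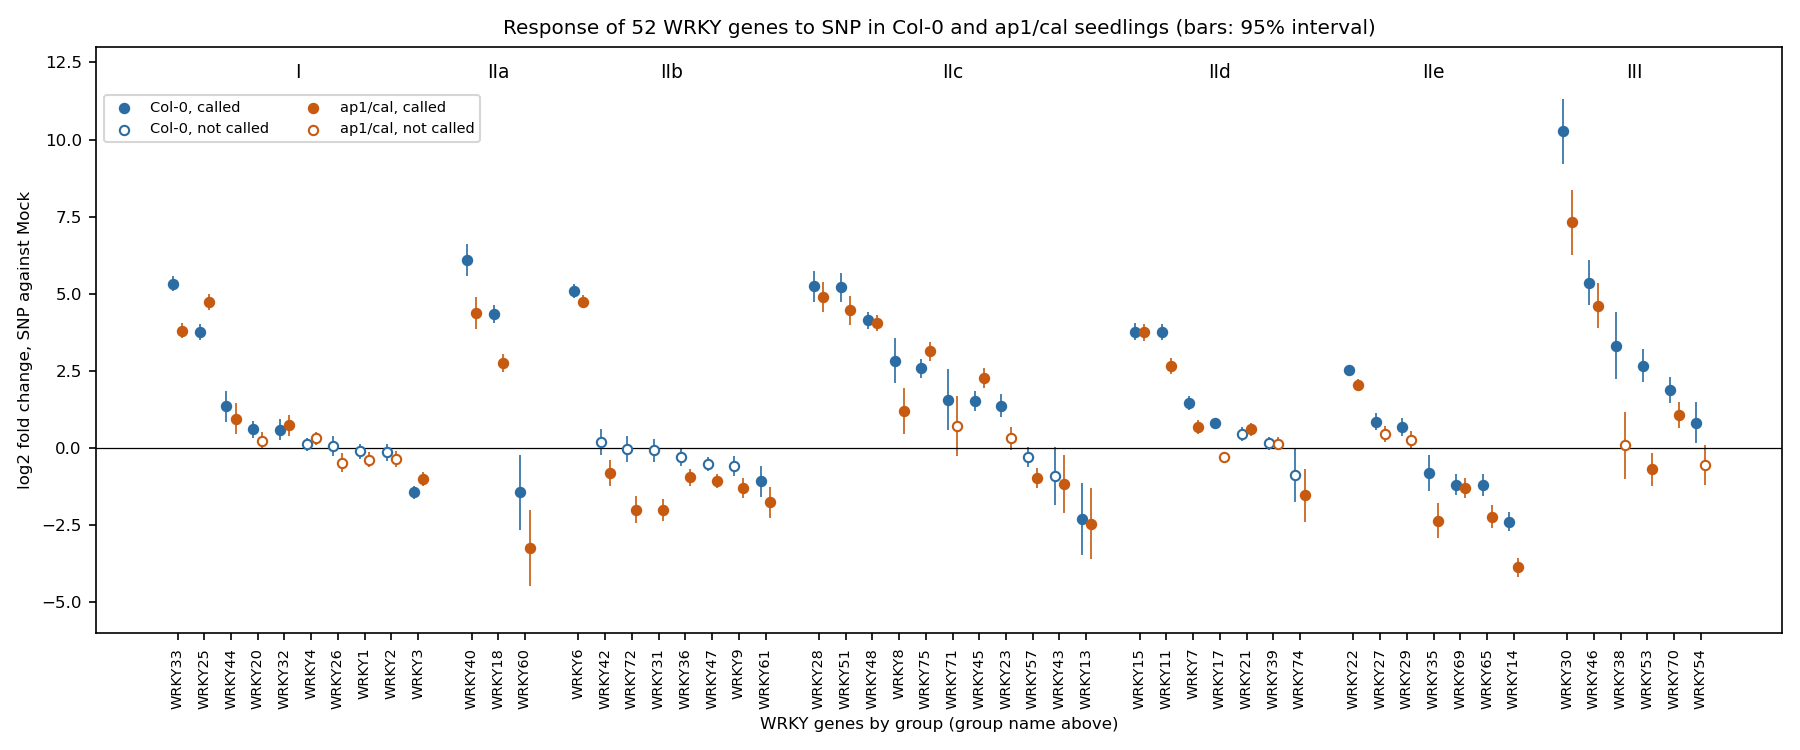
Log2 fold change of SNP against Mock (vertical axis) for the 52 tested WRKY genes in Col-0 (blue) and ap1/cal (orange), ordered by WRKY group, with filled points for called genes and bars for the 95% interval of the fit. Group III lies above 0 in Col-0 for all 6 genes, while 7 of the 8 group IIb genes lie below 0 and are called in ap1/cal.

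The total signal of the family was higher in every SNP library than in every Mock library. In Col-0 the summed signal of the 52 genes went from 15564 ± 653 to 137266 ± 7644 with SNP (SD, n = 3), and in the mutant from 16498 ± 762 to 96214 ± 10784. Per 1e6 of total signal these sums were 579 ± 26.3 and 3611 ± 171 in Col-0, and 604 ± 52.9 and 2149 ± 256 in ap1/cal. WRKY33, WRKY6 and WRKY40 held 57.7 to 59.1% of the Col-0 SNP sum, and WRKY33, WRKY6 and WRKY25 held 52.7 to 55.2% of that of ap1/cal. In Mock the 3 leading genes held 19.1 to 23.4%. Per kb of exon, the highest signal was that of WRKY15 in Col-0 Mock (694 per kb) and of WRKY40 in Col-0 SNP (17744 per kb). In ap1/cal WRKY33 was highest in both treatments (715 and 9959 per kb).

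Group I held 10 tested genes. In Col-0, 5 rose and 1 fell, and in ap1/cal 4 rose and 1 fell. Counts of calls, here and below, stand beside the shares of all genes tested. Those were 26.9% higher and 29.1% lower in Col-0, and 29.8% and 33.0% in ap1/cal. For the difference they were 7.60% higher and 6.97% lower. WRKY33 (AT2G38470), which is required for resistance to necrotrophic fungi and for camalexin synthesis, was at 757, 755 and 786 in the Col-0 Mock libraries and at 32224, 29210.2 and 30727 with SNP. In ap1/cal Mock it was at 1719, 1313 and 1317, and with SNP at 23266, 17368 and 19957. Treatments were well apart in both genotypes, and the SNP level was lower in every ap1/cal library than in every Col-0 library. Levels of the 2 genotypes come from separately scaled tables, here and below, and were not tested against each other. The log2 fold changes of 5.32 ± 0.11 (Col-0) and 3.80 ± 0.11 (ap1/cal) left a difference of -1.52 (95% interval -1.87 to -1.18, limma with Benjamini-Hochberg adjusted p = 9.28e-05).

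WRKY25 (AT2G30250), a relative of WRKY33 that acts in heat and salt tolerance, went the other way. It had 558, 458 and 585 in Col-0 Mock and 7829, 7243 and 6644 with SNP. The ap1/cal libraries had 416, 448 and 583 in Mock and 11877, 14039 and 12364 with SNP. Mock levels overlapped between the genotypes, whereas each ap1/cal SNP library lay above each Col-0 SNP library. Its rises of 3.76 ± 0.13 for Col-0 and 4.73 ± 0.13 for ap1/cal gave a difference of 0.97 (0.59 to 1.36, limma with Benjamini-Hochberg adjusted p = 0.00206). The last gene of this heat-related trio, WRKY26 (AT5G07100), gave 141, 167 and 161 in Col-0 Mock and 154, 172 and 163 with SNP. Levels in the mutant were 174, 174 and 198 in Mock and 149, 101 and 149 with SNP. WRKY26 was called in neither genotype (0.06 and -0.47), and its Col-0 groups overlapped.

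WRKY44 (AT2G37260), known as TTG2, a regulator of trichomes and the seed coat, was at 37.3, 62.1 and 57.4 in Col-0 Mock and 125, 139.6 and 134 with SNP. For ap1/cal the values were 46.0, 64.3 and 34.6 and 81.1, 107 and 88.5. It rose in both genotypes (1.36 ± 0.23 and 0.95 ± 0.23), without overlap between treatments. WRKY32 also rose in both (0.60 and 0.73), and WRKY20 in Col-0 (0.61, against 0.23 in ap1/cal, not called). The Col-0 calls of both were lost without the first Col-0 Mock or the second Col-0 SNP library (0.44 to 0.55 for WRKY20 and 0.40 to 0.56 for WRKY32, below the fold threshold). WRKY3 (AT2G03340) was the only group I gene that fell, with log2 fold changes of -1.43 and -1.0. WRKY1, WRKY2 and WRKY4 were not called and stayed between -0.38 and 0.32.

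Group IIa consists of WRKY18, WRKY40 and WRKY60, which form homodimers and heterodimers and act together in the control of basal defence and abscisic acid responses. WRKY40 (AT1G80840) was at 423, 319 and 302 in Col-0 Mock and 23744, 21019 and 25769.6 with SNP. In ap1/cal it was at 637, 402 and 362 in Mock and 13334, 6547 and 9544 with SNP. The SNP levels did not overlap between the genotypes, and the second ap1/cal SNP library was the lowest of the 3. Its log2 fold changes, 6.09 ± 0.24 for Col-0 and 4.38 ± 0.24 for ap1/cal, left a difference of -1.71 (-2.45 to -0.97). WRKY18 (AT4G31800) had 172, 166 and 171 in Col-0 Mock and 3251, 3276 and 3982 with SNP. Its ap1/cal values were 190.1, 174 and 201 and 1613, 1034 and 1212. The rise of WRKY18 was likewise smaller in ap1/cal (4.35 ± 0.14 against 2.74 ± 0.14, difference -1.61, limma with Benjamini-Hochberg adjusted p = 0.000159).

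WRKY60 (AT2G25000), the remaining partner, fell where the other two rose. It was at 80.0, 93.8 and 101 in Col-0 Mock and 39.0, 30.2 and 31.1 with SNP, and at 97.2, 96.5 and 91.5 and 12.8, 1.82 and 26.3 in ap1/cal. All SNP libraries lay below all Mock libraries, and the ap1/cal SNP libraries were spread widely. The change was -1.43 ± 0.56 for Col-0 and -3.23 ± 0.56 for ap1/cal, and the difference of -1.80 (-3.53 to -0.08) was not called. The Col-0 call was lost in 5 of 12 fits that left out 1 library, with changes between -1.54 and -1.36 (limma with Benjamini-Hochberg adjusted p = 0.0510 to 0.0835). Those 5 libraries were 2 Col-0 Mock libraries, the second and the third, and each Col-0 SNP library. These fits share the estimate of spread over all 4 groups, with the widely spread ap1/cal SNP libraries among them. With the Col-0 table fitted alone the Col-0 call was kept. Without the third ap1/cal SNP library the difference was -2.51 and was called.

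In group IIb most falls were called in ap1/cal and not in Col-0. Of 8 genes, WRKY6 rose in both genotypes, and WRKY61 fell in both. The other 6 fell in ap1/cal and were not called in Col-0, and 5 of the 8 were called lower for the difference. WRKY6 (AT1G62300), a regulator of senescence and a repressor of the phosphate exporter gene PHO1, was at 774, 739 and 778 in Col-0 Mock and 28622, 24201 and 25563 with SNP. The mutant gave 695, 718 and 705 in Mock and 21113, 15590.0 and 20735 with SNP. No treatment groups overlapped, and WRKY6 rose by 5.09 ± 0.10 and 4.75 ± 0.10, with a difference of -0.35 (-0.66 to -0.03) that was not called.

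WRKY72 (AT5G15130), which contributes to basal immunity, had 184, 227 and 221 in Col-0 Mock and 229, 157 and 238 with SNP, and the treatments overlapped. In ap1/cal it dropped from 229, 258 and 262 to 53.3, 52.2 and 85.0. WRKY31 (AT4G22070) showed the same shape, with 90.5, 104 and 119 and 103, 89.1 and 105 in Col-0. Its ap1/cal values were 140.4, 136 and 114 in Mock and 36.9, 33.4 and 25.3 with SNP. For both genes the ap1/cal SNP libraries lay below all other 9 libraries. The changes in Col-0 were -0.04 ± 0.20 for WRKY72 and -0.07 ± 0.17 for WRKY31, and those in ap1/cal -1.99 ± 0.20 and -2.01 ± 0.17. The differences of -1.96 and -1.94 were called (limma with Benjamini-Hochberg adjusted p = 0.000432 and 0.000192).

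Smaller differences were called for WRKY42 (-1.0), which acts with WRKY6 on PHO1, and for WRKY9 (-0.71) and WRKY36 (-0.64). With 1 library left out, the WRKY9 call was kept only without the second or the third Col-0 Mock, the second Col-0 SNP, the third ap1/cal Mock or the second ap1/cal SNP library, and was lost in the other 7 of 12 fits (-0.71 to -0.60). The WRKY36 call was lost in 4 (-0.59 to -0.56, without the first Col-0 Mock, the first or the third Col-0 SNP or the second ap1/cal Mock library), and that of WRKY42 in 2 (-0.97 and -0.87, without the third Col-0 SNP or the first ap1/cal Mock library). WRKY47 fell in ap1/cal (-1.07), and its difference of -0.55 was below the fold threshold. WRKY61 (AT1G18860) was at 49.1, 59.2 and 88.0 in Col-0 Mock and 33.1, 31.6 and 24.5 with SNP. Levels in the mutant were 72.5, 87.7 and 87.8 in Mock and 28.7, 21.5 and 21.1 with SNP. It fell in both genotypes (-1.08 and -1.76), with no overlap of treatments. Of the windows of 75 bases in WRKY61, 8.94% are shared with a gene on the opposite strand. Of the root markers, which did not move as one, EXPA7 fell from 384, 397 and 347 to 29.6, 17.5 and 29.2 in Col-0 and from 499.6, 481 and 412 to 2.05, 1.66 and 7.68 in ap1/cal, a difference of -2.94. MYB36 also differed (-0.85) but did not fall in Col-0, and the difference of COBL9 (-1.07) was not called. Their part in the falls of the WRKY genes was not tested.

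**Figure D2:**
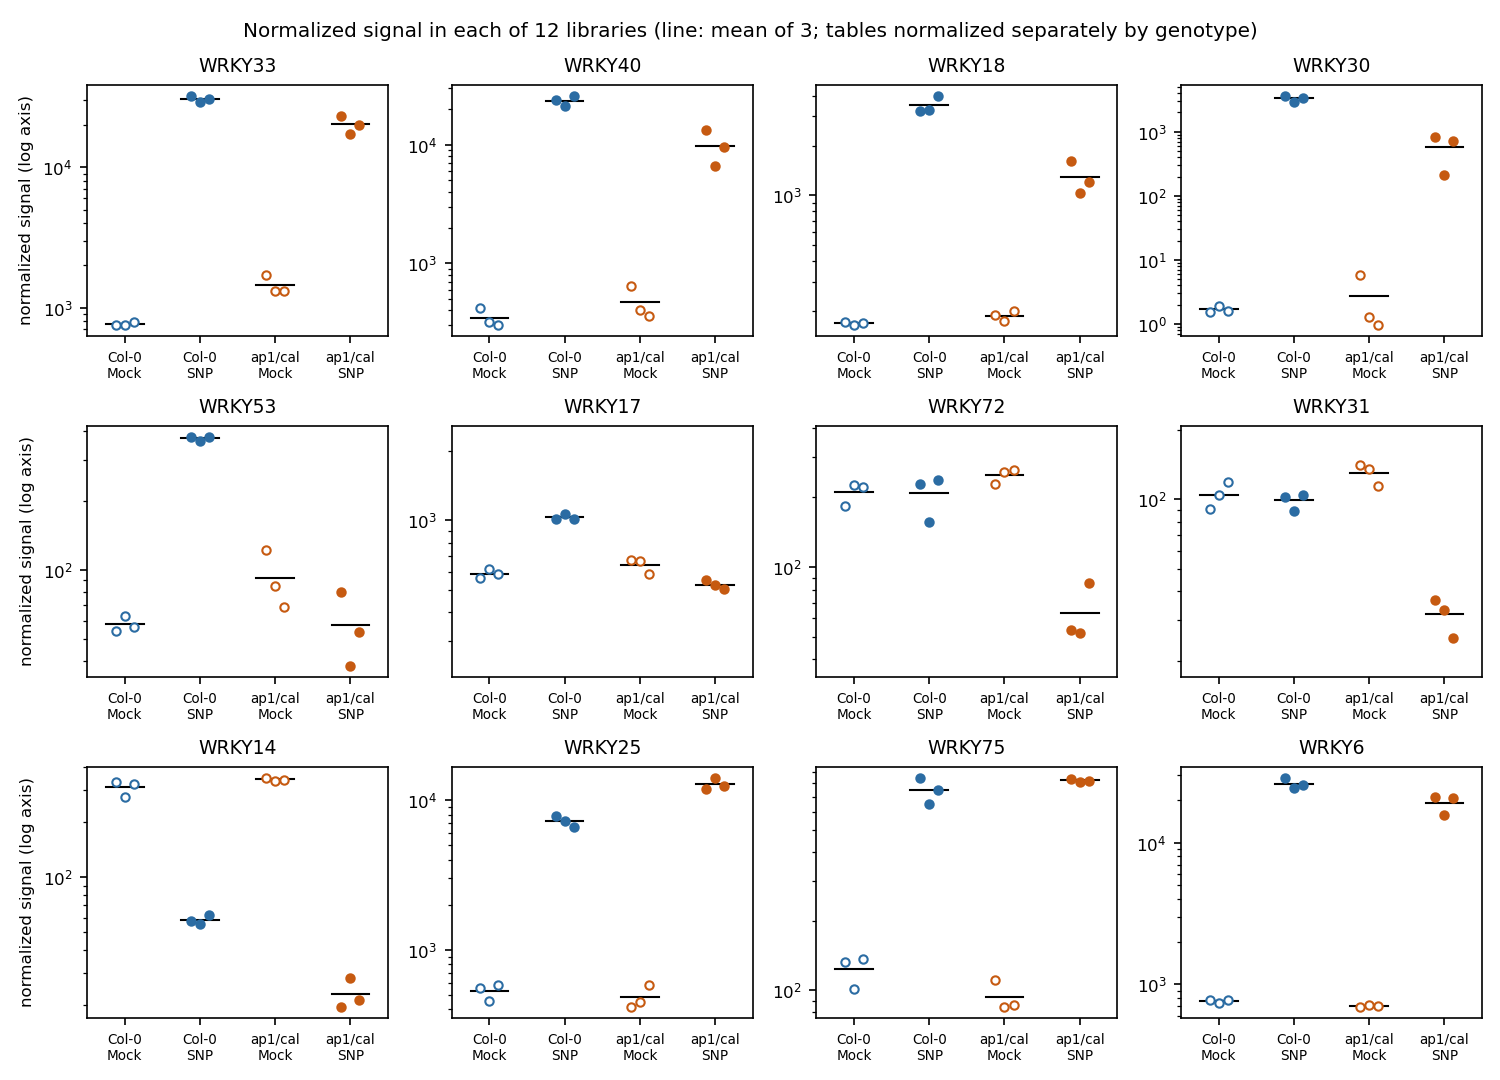
Normalized signal (vertical axis, log scale, a separate range for each gene) of 12 WRKY genes in each of the 12 libraries, with open points for Mock, filled points for SNP and a line at the mean of 3 libraries. WRKY33, WRKY40, WRKY18 and WRKY30 rise less in ap1/cal, WRKY72 and WRKY31 fall in ap1/cal alone, and WRKY25 rises more in ap1/cal.

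Group IIc, the largest group, held 11 tested genes, of which 8 rose and 1 fell in Col-0, and 6 rose and 3 fell in ap1/cal. Of these, WRKY8 and WRKY71 reached a value of 10 only with SNP, and WRKY13 and WRKY43 only in Mock. These genes therefore had to differ to be tested. WRKY28 (AT4G18170), an activator of the salicylic acid synthesis gene ICS1, was at 42.9, 29.1 and 50.1 in Col-0 Mock and 1787, 1326 and 1530.3 with SNP. For ap1/cal these were 27.8, 34.3 and 46.3 and 1359, 853 and 1109. WRKY51 (AT5G64810), which acts in the repression of jasmonate signalling, was at 21.1, 21.6 and 19.4 and 1048, 582 and 846 in Col-0. For ap1/cal these were 15.4, 22.1 and 20.3 in Mock and 356, 548 and 439.6 with SNP. Both genes stood far above Mock in every SNP library, and neither difference was called (-0.33 and -0.75). The rises were 5.24 ± 0.23 and 4.90 ± 0.23 for WRKY28, and 5.21 ± 0.22 and 4.46 ± 0.22 for WRKY51. Without the second Col-0 SNP library the difference of WRKY51 was -0.98 and was called. WRKY48, a repressor of basal defence, rose by 4.14 and 4.05.

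WRKY75 and WRKY45 are group IIc genes known from phosphate nutrition. WRKY75 (AT5G13080), induced by phosphate starvation and active in senescence and root hair growth, was at 133, 101 and 136 in Col-0 Mock and 845, 648 and 748 with SNP. The ap1/cal libraries held 111, 84.7 and 85.8 in Mock and 839.6, 813 and 823 with SNP. Its rises were 2.59 ± 0.14 and 3.13 ± 0.14, and the difference of 0.55 (0.11 to 0.98) was not called (limma with Benjamini-Hochberg adjusted p = 0.0655), although it was in 3 of 12 fits that left out 1 library (0.64 to 0.68, without the second Col-0 Mock, the first Col-0 SNP or the first ap1/cal Mock library). WRKY45 (AT3G01970), an activator of the phosphate transporter gene PHT1-1, had 139, 101 and 159 in Col-0 Mock and 377, 392 and 366 with SNP. The ap1/cal libraries had 111, 95.1 and 92.6 and 507, 462 and 476. Each ap1/cal SNP value of WRKY45 was above each Col-0 SNP value. It rose by 1.53 ± 0.14 and 2.27 ± 0.14, a called difference of 0.74 (limma with Benjamini-Hochberg adjusted p = 0.0205). The call was lost without the third Col-0 SNP library (0.71, limma with Benjamini-Hochberg adjusted p = 0.0522) and with scaling to equal totals (0.53, adjusted p = 0.0704).

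Among the other IIc genes, WRKY23, which acts in auxin responses, rose in Col-0 alone (1.37, against 0.31) and differed by -1.06. WRKY57 differed by -0.68 and was called lower in ap1/cal alone. With 1 library left out, the call of the difference was kept only without the second or the third Col-0 Mock, the third ap1/cal Mock or the first ap1/cal SNP library, and was lost in the other 8 of 12 fits (-0.73 to -0.56). WRKY8, at 3.76 to 9.65 in Mock, reached 40.1, 35.7 and 31.5 with SNP in Col-0 and 25.6, 13.3 and 13.4 in the mutant, a difference of -1.64. The call of that difference was lost in 7 of the 12 fits (-1.63 to -1.40), and kept without the first or second Col-0 Mock, the third Col-0 SNP, the first ap1/cal Mock or the first ap1/cal SNP library. WRKY13 (AT4G39410), known from lignin formation in stems, was at 7.8, 13.2 and 8.07 in Col-0 Mock and 0, 3.32 and 1.17 with SNP. In ap1/cal it was at 8.79, 18.2 and 12.5 in Mock and 1.03, 1.66 and 1.92 with SNP. It fell in both genotypes (-2.30 and -2.45) at a level of few reads. The ap1/cal SNP libraries held 3 of its reads in all against 67 in Mock, a 9.97-fold lower level per depth (95% exact interval of counting error, 3.27 to 49.6).

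Group IId, whose members bind calmodulin, had 7 tested genes, with 4 higher in Col-0, and 4 higher and WRKY74 lower in ap1/cal. WRKY74 reached a value of 10 only in Mock and so had to differ to be tested. In Col-0 limma called none lower, and 1 (WRKY74) had a negative change at an unadjusted p below 0.05. WRKY15, which acts in responses to oxidants and salt, rose in both genotypes (3.78 and 3.75), with a difference of -0.03 (-0.41 to 0.36). WRKY11 (AT4G31550) and its relative WRKY17 are negative regulators of basal resistance. WRKY11 was at 689, 881 and 873 in Col-0 Mock and 11776, 10277 and 11064 with SNP. The mutant gave 1152, 1011 and 929 in Mock and 7510.3, 5619.7 and 6530.1 with SNP. All ap1/cal SNP libraries lay below all Col-0 SNP libraries, and the rises of 3.77 ± 0.12 and 2.66 ± 0.12 differed by -1.10 (limma with Benjamini-Hochberg adjusted p = 0.000731).

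WRKY17 (AT2G24570) was at 561, 617 and 585 in Col-0 Mock and 1016, 1066 and 1016 with SNP. Levels in the mutant were 672, 669 and 586 in Mock and 550.5, 525 and 505 with SNP. It moved up in Col-0 and slightly down in ap1/cal, with no overlap of treatments in either. Its rise in Col-0 was no longer called when libraries were scaled to equal totals (0.31) or to the upper quartile (0.55), and its change in ap1/cal was then called as a fall (-0.99 and -0.65). WRKY7 (AT4G24240) was at 757, 737 and 905 and 2101, 2318 and 2139.7 in Col-0, and at 929.7, 849 and 838 and 1619, 1253 and 1330.2 in ap1/cal. WRKY7 rose by 1.45 ± 0.10 for Col-0 and 0.68 ± 0.10 for ap1/cal, although with scaling to equal totals the ap1/cal change turned to -0.03, and it differed by -0.78. Without the first ap1/cal SNP library its ap1/cal change was 0.57, below the fold threshold. WRKY21 rose in ap1/cal (0.60, against 0.45 in Col-0, below the fold threshold), and WRKY39 was called in neither (0.15 and 0.14). The call of WRKY21 was lost without the second ap1/cal Mock or the first ap1/cal SNP library (0.52 to 0.56, below the fold threshold).

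Group IIe split by member. WRKY22 and WRKY29, known as targets of the flagellin-triggered kinase cascade, and WRKY27 rose in Col-0 (2.52, 0.67 and 0.86), and WRKY22 rose also in ap1/cal (2.04). WRKY29 was at 0.50, below the fold threshold, without the first Col-0 Mock library. WRKY14, WRKY35, WRKY65 and WRKY69 fell in both genotypes. WRKY14 (AT1G30650) was at 334, 275 and 322 in Col-0 Mock and 57.5, 55.7 and 61.8 with SNP. For ap1/cal these were 349, 338 and 342 in Mock and 19.5, 28.2 and 21.1 with SNP. Mock levels were close in both genotypes, and the SNP levels did not overlap. The falls of -2.39 ± 0.14 and -3.86 ± 0.14 differed by -1.48 (-1.92 to -1.03, limma with Benjamini-Hochberg adjusted p = 0.000362), and that of ap1/cal was the most negative change of the family.

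WRKY65 (AT1G29280) was at 842, 746 and 873 in Col-0 Mock and 418, 269 and 398 with SNP. In ap1/cal it dropped from 794, 814 and 813 to 146, 222 and 157. WRKY35 (AT2G34830) was at 101, 86.0 and 92.8 and 53.7, 39.1 and 70.3 in Col-0, and at 86.4, 97.6 and 91.7 and 27.0, 15.7 and 11.9 in ap1/cal. Both fell further in ap1/cal: the changes were -1.20 ± 0.17 and -2.22 ± 0.17 for WRKY65, and -0.81 ± 0.27 and -2.35 ± 0.27 for WRKY35. The differences were -1.02 and -1.55. Without the second Col-0 SNP library the Col-0 fall of WRKY35 was -0.59 and was not called. WRKY69 fell in both genotypes (-1.19 and -1.29, difference -0.10, interval -0.58 to 0.37).

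Group III, tied to salicylic acid, senescence and oxidant signalling, had 6 tested genes, all called higher in Col-0. WRKY30 and WRKY38 reached a value of 10 only with SNP and so had to rise to be tested, WRKY38 through the Col-0 SNP libraries alone. In ap1/cal 3 rose, WRKY53 fell and 2 were not called, and 4, with WRKY30 and WRKY38 among them, were called lower for the difference. WRKY30 (AT5G24110), a gene induced by oxidants, was at 1.56, 1.88 and 1.61 in Col-0 Mock and 3624, 2880.2 and 3421 with SNP. The ap1/cal libraries held 5.86, 1.3 and 0.965 in Mock and 836, 212 and 706 with SNP. The Col-0 Mock libraries held 6 of its reads in all and the SNP libraries 8477, a ratio per depth of 1923 (95% exact interval of counting error, 883 to 5241). In ap1/cal 12 and 1312 reads gave a ratio of 245 (140 to 475). The second ap1/cal SNP library was the lowest of its group. The difference on the log2 scale was -2.94 (-4.44 to -1.45, limma with Benjamini-Hochberg adjusted p = 0.00865), and between -3.31 and -2.33 with 1 library left out. Fitted values at so few Mock reads depend on the added constant.

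WRKY53 (AT4G23810), an early regulator of leaf senescence, was the gene called in opposite directions. It was at 53.8, 63.0 and 56.5 in Col-0 Mock and 378, 362 and 378 with SNP, and the Col-0 treatments were clearly apart. In ap1/cal it was at 122, 84.7 and 68.5 and 80.0, 38.1 and 53.7, and there they overlapped. Its log2 fold change was 2.67 ± 0.24 for Col-0, a rise, and -0.69 ± 0.24 for ap1/cal. The difference of -3.37 (-4.11 to -2.62, limma with Benjamini-Hochberg adjusted p = 8.50e-05) was the most negative of the family and held in all 12 fits that left out 1 library. The fall in ap1/cal was less firm, since it was not called without the first ap1/cal Mock library (-0.47) or the second ap1/cal SNP library (-0.44), nor with the ap1/cal table fitted alone (limma with Benjamini-Hochberg adjusted p = 0.0574).

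WRKY53 overlaps a gene on the opposite strand, AT4G23800, with which it shares 17.4% of its 75-base windows. In Col-0 that neighbour went from 629 ± 335 in Mock to 744 ± 108 with SNP (SD, n = 3), a log2 fold change of 0.39. In the mutant it went from 807 ± 126 to 487 ± 77.4, or -0.73. Libraries were strand-specific, but whether the strand was used in counting is not stated, so reads of the shared stretch may belong to either gene. WRKY1, WRKY29 and WRKY69 share 5.15%, 15.1% and 12.7% of their windows with opposite genes. Without the 10 tested WRKY genes that overlap another gene, 31 of 42 were called in Col-0, 33 in ap1/cal and 19 for the difference.

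WRKY46 (AT2G46400), which acts with WRKY54 and WRKY70 in defence and water relations, was at 19.5, 22.6 and 21.8 in Col-0 Mock and 847, 817 and 1107 with SNP. In ap1/cal it was at 42.5, 11.7 and 13.5 in Mock and 479, 520.2 and 472 with SNP. It rose by 5.36 ± 0.34 and 4.62 ± 0.34, and its difference was not called (-0.75, interval -1.79 to 0.29). WRKY70 (AT3G56400), a switch between salicylic acid and jasmonate responses, was at 235, 411 and 284 and 1163, 1059.8 and 1151 in Col-0, and at 520.1, 449 and 314 and 873, 1007 and 800.4 in ap1/cal. Its rises were 1.89 ± 0.20 and 1.08 ± 0.20. The difference of -0.81 lay at the threshold (limma with Benjamini-Hochberg adjusted p = 0.0509) and was called in 3 of 12 fits that left out 1 library (-1.03 without the second Col-0 Mock, -1.02 without the third ap1/cal Mock and -0.90 without the second ap1/cal SNP library).

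WRKY38 (AT5G22570), a negative regulator of basal defence, was low throughout, at 4.68, 1.88 and 2.42 in Col-0 Mock and 54.0, 22.4 and 42.0 with SNP. The mutant gave 4.4, 5.21 and 3.86 in Mock and 5.13, 9.94 and 1.92 with SNP. Only the Col-0 SNP libraries stood apart, and the change was 3.32 ± 0.50 for Col-0 and 0.09 ± 0.50 for ap1/cal, a difference of -3.23 (-4.76 to -1.70). WRKY54 rose in Col-0 (0.82) and not in ap1/cal (-0.55, groups overlapping), a difference of -1.38. With 1 library left out, the call of this difference was kept only without the second Col-0 Mock, the second Col-0 SNP, the third ap1/cal Mock or the third ap1/cal SNP library, and was lost in the other 8 of 12 fits (-1.41 to -1.16, limma with Benjamini-Hochberg adjusted p = 0.0535 to 0.0902). Its rise in Col-0 was lost in 3 of them (0.67 to 0.78, without the first Col-0 Mock, the first Col-0 SNP or the third Col-0 SNP library).

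Across the 52 tested genes of the list, which was chosen with earlier results known, most changes were more negative in ap1/cal. For the difference, 23 of 52 WRKY genes were called (44.2%, against 14.6% of all genes tested). Of these, 21 were lower in ap1/cal (40.4%, against 6.97%) and 2, WRKY25 and WRKY45, were higher (3.85%, against 7.60%). The log2 fold change was more negative in ap1/cal for 45 of the 52 (86.5%), as it was for 52.0% of all genes, and the median difference was -0.67, against -0.02 over all genes. Over the 45 genes that reached 10 in both treatments, 18 were lower and 2 higher. Group I was mixed, with 1 called lower, 1 called higher and 6 of 10 changes more negative in ap1/cal. Of the 9 other WRKY genes tested, not on the list, 0 were called lower and 1 higher, and 5 changes were more negative. The 21 lower calls came from genes that rose less (such as WRKY33, WRKY40, WRKY18 and WRKY11), from genes that fell further (WRKY14, WRKY35 and WRKY65), from genes called as falls in ap1/cal alone (such as WRKY72 and WRKY31) and from genes called as rises in Col-0 alone (such as WRKY23 and WRKY54). Scaling to equal totals moved the median difference of all genes to -0.23, and 28 WRKY genes were then lower (53.8%, against 13.5% of all genes) and 1 higher (1.92%, against 4.23%). With the null hypothesis set at a fold of 1.5, 7 differences were called in place of 23: WRKY14, WRKY17, WRKY18, WRKY31, WRKY33, WRKY53 and WRKY72.

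**Figure D3:**
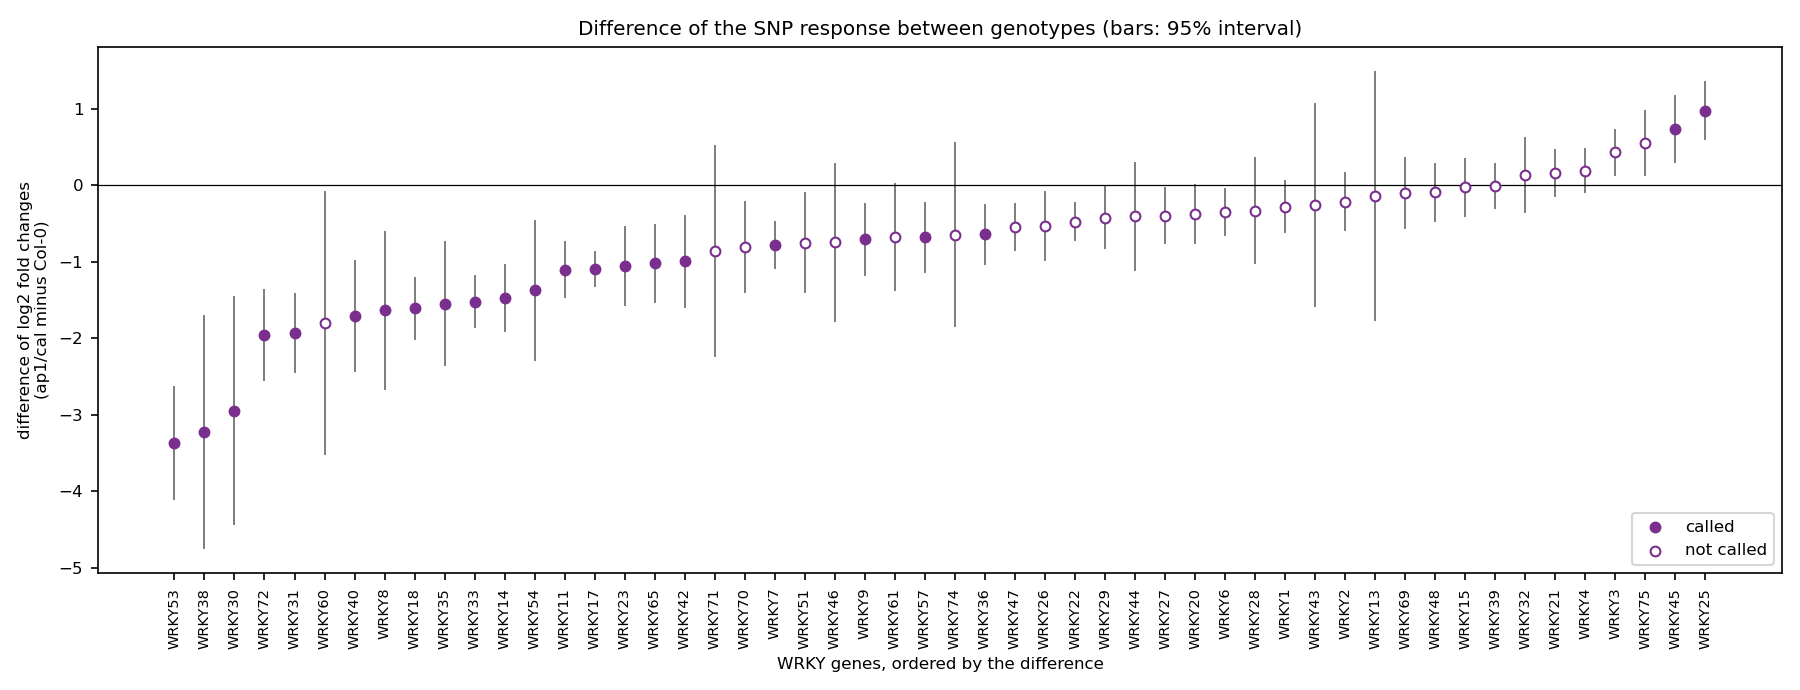
Difference of the log2 fold changes, ap1/cal minus Col-0 (vertical axis), for the 52 tested WRKY genes in order of the difference, with filled points for called genes and bars for the 95% interval. The order runs from WRKY53 at -3.37 to WRKY25 at 0.97, and 45 of the 52 points lie below 0.

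The genes at the edge of the filter were described by their levels. WRKY13, WRKY38, WRKY43 and WRKY71 had values of at least 10 in exactly 3 libraries. WRKY71 was at 3.9, 2.82 and 5.65 in Col-0 Mock and 13.9, 12.5 and 15.2 with SNP, and at 2.93, 1.74 and 1.93 and 2.05, 8.28 and 3.84 in the mutant. WRKY43 was at 8.49, 12.2 and 7.33 in Col-0 Mock and 7.08, 3.27 and 3.51 with SNP, and at 14.0, 10.5 and 4.76 and 3.03, 3.38 and 3.85 in the mutant. Just outside lay WRKY10, a seed gene with 1 library at 10.5 and the others at 0 to 8.28, and WRKY12, at 0 to 4.67. WRKY50 was listed for Col-0 alone, at 0.940 to 4.67, and WRKY41 and WRKY55 were in neither table. WRKY74 (AT5G28650) was above 10 in 5 libraries, at 11.7, 13.2 and 12.9 in Col-0 Mock and 5.23, 8.31 and 5.83 with SNP, and at 10.99, 19.5 and 7.72 and 2.05, 4.97 and 3.84 in the mutant. It fell in ap1/cal (-1.54, against -0.89 in Col-0, not called).

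A further 15 genes carry a WRKY symbol in the annotation and were not on the list, and 9 of them passed the filter. In Col-0 3 rose and 3 fell, and in ap1/cal 3 rose and 4 fell. For the difference limma called WRKY19 higher (0.64) and none lower, while 2 (WRKY16, -0.39, and WRKY52, -0.57) were negative at an unadjusted p below 0.05. WRKY63 (AT1G66600), named after its values were seen, was at 11.7, 3.76 and 5.65 in Col-0 Mock and 237, 222 and 247 with SNP, and at 3.66, 7.81 and 6.75 and 337, 348 and 369 in ap1/cal. It rose by 5.0 and 5.69, and its difference of 0.69 was not called.

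Most kinases on a list of those that phosphorylate WRKY proteins or act above them rose. Of 14 genes, 12 were called higher in Col-0 (85.7%, against 26.9% of all genes, median log2 fold change 1.36) and 11 in ap1/cal (78.6%, against 29.8%, median 1.28). MKK5 (0.01 and 0.14) and CPK6 (0.26 and -0.06) were called in neither, and CPK5 not in ap1/cal (0.36). No kinase was called lower by limma, and 0 had a negative change at an unadjusted p below 0.05. MPK11 (AT1G01560) was at 13.3, 5.64 and 14.5 in Col-0 Mock and 1014, 943 and 959 with SNP, and at 2.2, 3.47 and 6.75 and 769.9, 543 and 700.4 in ap1/cal. MPK3 (AT3G45640), which phosphorylates WRKY33, was at 1337, 1275 and 1339.6 and 10266, 9134 and 10138 in Col-0. Levels in the mutant were 1853, 1586 and 1513 in Mock and 8196, 7537 and 7761 with SNP. Both stood clear of Mock in all libraries, with rises of 6.42 and 7.11 for MPK11, and 2.90 and 2.25 for MPK3. MPK3 (-0.65) and MKK4 (-0.71) were the 2 kinases called lower for the difference. None was called higher, and 3 were positive at an unadjusted p below 0.05 (CPK11 at 0.45, MPK4 at 0.42 and MPK6 at 0.41), all below the fold threshold. Over the 14 kinases the median difference was 0.06. Among calcium-dependent kinases, the rises for Col-0 and ap1/cal were 2.28 and 1.79 for CPK4, and for CPK11 2.0 and 2.44.

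VQ proteins bind WRKY factors and alter their activity. Of 10 genes, 8 rose and 1 fell in Col-0, where 26.9% of all genes tested rose and 29.1% fell. In ap1/cal 9 rose and 1 fell, where 29.8% of all genes rose and 33.0% fell. The median log2 fold changes of the VQ genes were 3.49 and 3.13. SIB1 (AT3G56710), which binds WRKY33, was at 226, 68.2 and 137 in Col-0 Mock and 19551, 16310.0 and 15675 with SNP. For ap1/cal these were 60.2, 46.6 and 82.2 in Mock and 21883, 22751 and 22889 with SNP. Its rise was larger in ap1/cal by 1.45, as was that of SIB2 (1.03), whereas MKS1, which links WRKY33 to MPK4, rose less there (3.53 against 2.31, difference -1.21). VQ10 rose by 7.92 and 7.18, and VQ12 by 5.82 and 4.79. The gene that fell in both was IKU1 (-1.40 and -2.0), a partner of WRKY10 in seed growth.

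Genes reported as targets of WRKY factors were mixed. Of 27 listed, 20 were tested, with 13 higher (65.0%, against 26.9% of all genes) and 3 lower (15.0%, against 29.1%) in Col-0. In ap1/cal 8 were higher (40.0%, against 29.8%) and 6 lower (30.0%, near the 33.0% of all genes). The medians were 0.82 and 0.11. For the difference 3 were higher (15.0%, against 7.60% of all genes) and 6 lower (30.0%, against 6.97%). CYP81F2 (AT5G57220), an indole glucosinolate gene, was at 304, 167 and 254 in Col-0 Mock and 15143, 11804 and 14708 with SNP, and rose by 5.87 and 5.07. PHT1-1 (AT5G43350), a phosphate transporter gene, was at 5137, 4685 and 5605 in Col-0 Mock and 221, 214 and 201 with SNP. The ap1/cal libraries held 5508, 5630.4 and 5858 in Mock and 151, 101 and 188 with SNP. PHT1-1 belongs to a family with near-identical copies, so its reads may be split among them. PHT1-1, PHT1-4 and PHO1 were the 3 target genes that fell in Col-0, and all 3 fell further in ap1/cal (-0.72, -1.21 and -0.96).

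Among stress targets, the alternative oxidase gene AOX1A rose by 4.73 and 5.61, and the senescence gene SAG13 by 4.53 and 7.34. SAG13 lay at or under 3 reads in each ap1/cal Mock library, so its fitted value there depends on the added constant. Both were called higher for the difference, as was ACS2 (0.71), a gene of ethylene synthesis. The other ethylene gene on the list, ACS6, a target of WRKY33, rose by 2.53 for Col-0 and 0.74 for ap1/cal, a difference of -1.79. PR5 and EDS1, genes of the salicylic acid pathway, rose in Col-0 alone (1.05 and 0.60, against -0.63 and 0.01), with differences of -1.68 and -0.59. Besides the phosphate genes, SARD1 (-2.66), FRK1 (-1.69, groups overlapping) and NHL10 (-1.19) were called lower in ap1/cal. In Col-0 they were not called (-1.12, 0.24 and -0.27), and none of their differences was called. SARD1 lay at or under 3 reads in each ap1/cal SNP library. ICS1 rose in both (0.80 and 0.78), as did CYP71A12 (3.54 and 2.92). PAD3, a camalexin gene, rose in Col-0 (0.65, against -0.16), a difference that was not called (-0.80). These lists were drawn up with earlier results of the data known, and no test was made of a list as a whole.

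**Figure D4:**
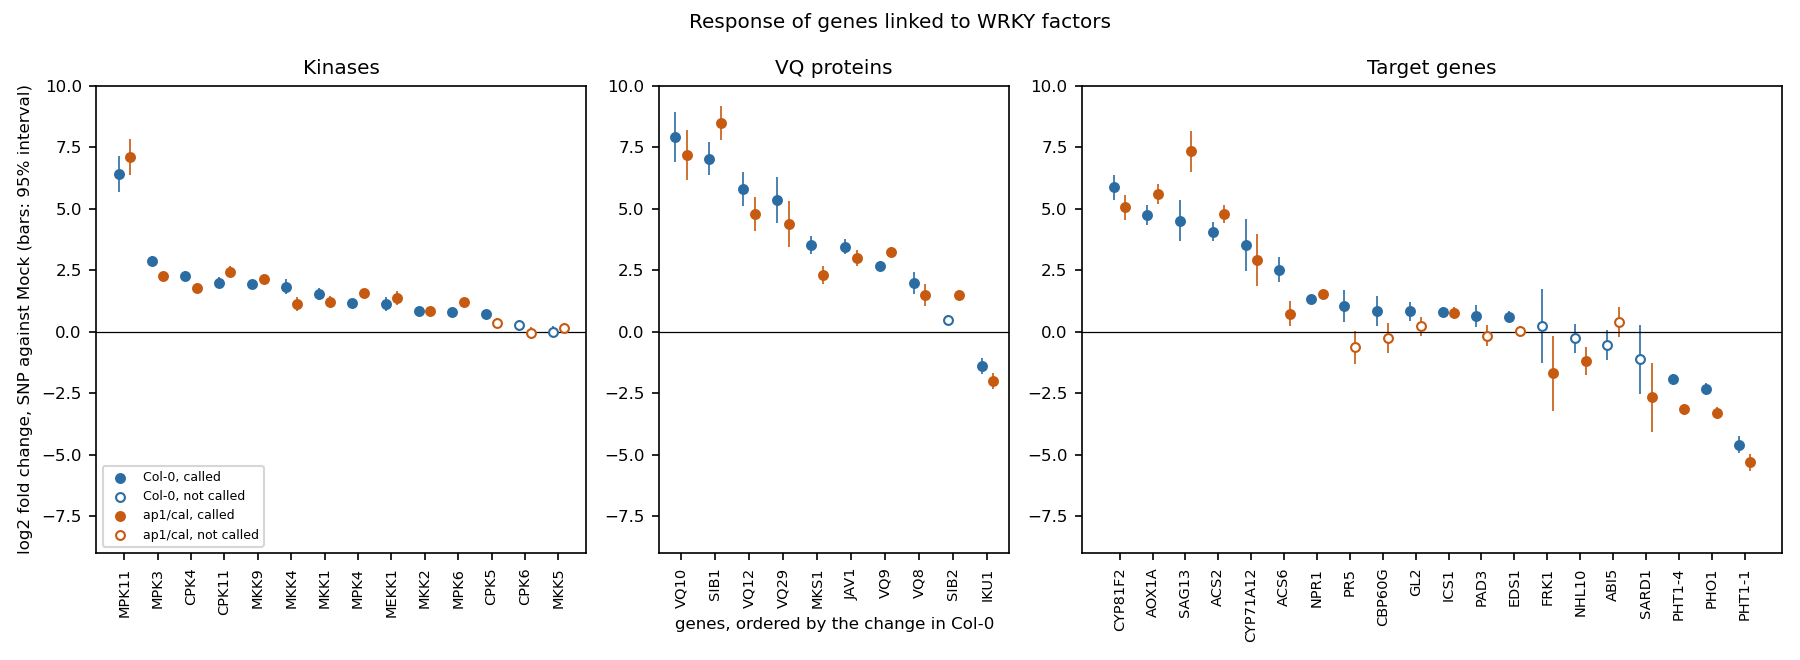
Log2 fold change of SNP against Mock (vertical axis) in Col-0 (blue) and ap1/cal (orange) for kinases, VQ proteins and target genes linked to WRKY factors, with filled points for called genes and bars for the 95% interval. No kinase is called lower, whereas the phosphate genes PHT1-1, PHT1-4 and PHO1 lie furthest below 0 among the targets in both genotypes.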

How the data were processed

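RNA was poly(A)-selected and made into strand-specific libraries per the labels. The submitters' processing notes name FastQC, STAR, DESeq2 and the build TAIR10, and the study's methods name DEGseq. The tool that assigned reads to genes is not given in the sources used here. The authors deposited 2 tables, described as raw counts, whose values are a normalized signal. In each library all low values of genes with 1 transcript were whole multiples of one step at a tolerance of 0.001, but of all low values 66.8 to 70.2% were. A count test was therefore not run. Reads per library and floors of 3 reads come from these steps and cover counting error only.

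Genes in both tables with at least 10 in 3 or more libraries were fitted with limma 3.58.1 (R 4.3.3) on log2(value + 1), as 4 group means with a mean-variance trend. The fold changes understate the change of low genes. Python 3.11.15 and pandas 2.3.3 were used for the rest, and the fit was tested on simulated data. P-values set each change against the spread between libraries within groups, which the main fit shares over the 4 groups and draws towards that trend. Gene names, exon lengths, overlaps and promoters came from the RefSeq annotation of TAIR10.1.

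The WRKY genes and the lists of kinases, VQ proteins, targets and markers were chosen with earlier results of these data known. Library values are given for the 8 called genes with the largest rise and the 8 with the largest fall, for up to 12 called differences by p, for well-known genes, and for genes called in opposite directions or near the filter. Of each other list, up to 4 genes with the largest change were named by rule. The remaining genes named from these lists were chosen after their values were seen. The planned search for the WRKY peptide signature was not made, as no protein sequences were used here.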

Additional observations from a re-analysis of the deposited data

Results flagged for a closer look

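The change with SNP was unequal in Col-0 and ap1/cal for 23 of the 52 WRKY genes, by a test of the difference itself in limma, at the thresholds used throughout. The following values are the log2 fold change in ap1/cal minus that in Col-0. In group I the difference was -1.52 for WRKY33 and 0.97 for WRKY25. In group IIa the difference was -1.71 for WRKY40 and -1.61 for WRKY18. In group IIb the difference was -1.96 for WRKY72, -1.94 for WRKY31, -1.0 for WRKY42, -0.71 for WRKY9 and -0.64 for WRKY36. In group IIc the difference was -1.64 for WRKY8, -1.06 for WRKY23, -0.68 for WRKY57 and 0.74 for WRKY45. In group IId the difference was -1.10 for WRKY11, -1.10 for WRKY17 and -0.78 for WRKY7. In group IIe the difference was -1.55 for WRKY35, -1.48 for WRKY14 and -1.02 for WRKY65. In group III the difference was -3.37 for WRKY53, -3.23 for WRKY38, -2.94 for WRKY30 and -1.38 for WRKY54.

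The positive values, of WRKY25 and WRKY45, mark a larger rise in ap1/cal. The negative values mark a smaller rise or a stronger fall there, and for WRKY17, WRKY42, WRKY53 and WRKY54 log2 fold changes of opposite sign in the 2 genotypes. No explanation of these differences was tested. Among the 23 calls, those of WRKY8, WRKY9, WRKY54 and WRKY57 were lost in at least 7 of 12 fits that left out 1 library. WRKY8, WRKY30 and WRKY38 reached a value of 10 only with SNP, WRKY38 in Col-0 alone. The filter thus favoured a rise in these genes, and for WRKY38 a larger rise in Col-0. Of the 45 genes that reached 10 in both treatments, 20 were called for the difference.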

How the results depend on the processing

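Besides the main setting, 25 others were tried, those reported above included. Among them were other pseudocounts, filters, scalings and call rules, and leaving out each of the 12 libraries. The counts of called WRKY genes (37 in Col-0, 39 in ap1/cal and 23 for the difference) stayed within 1.5 times, except that 7 differences were called when tested against a fold of 1.5. Over all genes that test called 338 differences, against 3006. With 1 library left out, the counts were 34 to 38, 37 to 40 and 18 to 25. Signs were compared for the genes with library values given by rule, except those given only as near the filter. Of their changes called in either fit compared, 1 reversed: WRKY7 in ap1/cal, at -0.034 with scaling to equal totals. Reversals of other genes that lost a call, such as WRKY21, were not counted. Small changes called in neither fit also switched sign, such as those of WRKY26, WRKY31 and WRKY72 in Col-0 and WRKY38 in ap1/cal. The cause of these switches was not tested. Same-numbered Mock and SNP libraries did not deviate together in Col-0 (correlations of -0.05 to 0.06). In ap1/cal their correlations (0.12 to 0.17) were above the limit of 0.1 set for pairing. Those of unlike numbers there were -0.138 to 0.014. As this held in ap1/cal alone, the numbers were not taken as pairs. With the replicate number as a block common to both genotypes, 38, 39 and 23 WRKY genes were called. Pairing within ap1/cal alone was not fitted. The block kept all calls within each genotype and 22 of the 23 differences, losing WRKY54 and gaining WRKY70. Scaling to equal totals lost the calls of WRKY17, WRKY20, WRKY27, WRKY29, WRKY32 and WRKY54 in Col-0, and of WRKY7, WRKY8, WRKY21, WRKY32, WRKY44 and WRKY70 in ap1/cal. Genes with few reads, such as WRKY13, WRKY38, WRKY43, WRKY71 and WRKY74, are limited by depth, and levels of the 2 genotypes, set side by side here, were not tested against each other because the tables were normalized separately.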
